A study of Rattus norvegicus with 3 samples.

Results

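Onecut1, Onecut2, Onecut3, Zfhx3, Zfhx4, Pou2f2, Nfia, Nfib, Neurod2 and Neurod6 encode transcription factors that mark when a spinal neuron was born. Rows of the deposited table were taken where the gene symbol equalled one of these 10 names, ignoring case. The symbols of 9 members matched, with 1 row each, among 26353 entries; Neurod2 matched no row and was not analysed here. Of the 9, 8 were above 0 in at least 1 library, and Onecut3 was listed at 0 in all 3. All 3 libraries belong to 1 group, rat commissural neurons taken from embryonic day 13 spinal cord and grown for 2 days in vitro; no treated or control group exists. They are called libraries 1, 2 and 3 by the replicate numbers of the labels. Nothing says that they came from separate cultures or animals, so a p-value here covers the spread among these 3 samples alone, and that spread may be technical. Levels are FPKM as deposited, that is fragments scaled to transcript length and to library size, which is meant to let genes be set beside each other. All entries summed to 2.50e+07, 1.99e+07 and 2.62e+07 FPKM in libraries 1, 2 and 3. Most of each sum came from entries with very high values. FPKM does not give the depth of a library, and how fragments shared by close relatives were assigned is not known.

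In the mouse neural tube, neurons of most dorsal and ventral classes share a temporal code. The earliest-born neurons carry Onecut factors, later ones carry Pou2f2 and Zfhx factors, and the last-born ones carry Nfi factors together with Neurod2 and Neurod6. Nfia and Nfib also act in progenitors, where Nfia, downstream of Sox9, takes part in the switch from making neurons to making glia.

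The promoters of 6 of the 10 symbols, Zfhx3, Pou2f2, Nfia, Nfib, Neurod2 and Neurod6, matched RefSeq's table of assembly GRCr8. Those shown here belong to the genes that stood highest, level and lowest in library 2 among the members with both a promoter and a measured row, namely Neurod6 (chr4:86180156-86180405, minus strand), Nfia (chr5:117557030-117557279, plus strand) and Zfhx3 (chr19:53551238-53551487, plus strand). Each is the 250 bases before the transcription start, written 5′ to 3′, and capitals mark E-boxes (CANNTG), the letters that basic helix-loop-helix proteins such as Neurod6 recognise.
Neurod6: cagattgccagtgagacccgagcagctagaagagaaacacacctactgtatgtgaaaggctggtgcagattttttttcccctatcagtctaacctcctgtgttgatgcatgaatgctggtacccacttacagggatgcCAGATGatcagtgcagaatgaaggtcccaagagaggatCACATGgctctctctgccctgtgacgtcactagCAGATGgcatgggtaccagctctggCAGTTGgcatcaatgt
Nfia: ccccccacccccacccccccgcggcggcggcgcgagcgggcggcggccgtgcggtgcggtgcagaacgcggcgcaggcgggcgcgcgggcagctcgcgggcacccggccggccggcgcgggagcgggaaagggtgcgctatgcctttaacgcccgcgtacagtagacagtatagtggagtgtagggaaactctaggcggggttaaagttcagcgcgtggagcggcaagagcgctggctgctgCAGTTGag
Zfhx3: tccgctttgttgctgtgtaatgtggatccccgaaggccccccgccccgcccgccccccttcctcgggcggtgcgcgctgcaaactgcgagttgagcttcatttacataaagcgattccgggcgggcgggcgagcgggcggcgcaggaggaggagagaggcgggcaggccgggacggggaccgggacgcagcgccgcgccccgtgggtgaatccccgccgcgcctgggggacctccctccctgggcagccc
The Neurod6 window held 4 E-boxes, the Nfia window 1, and in the Zfhx3 window these letters were not found. The same window held an E-box in 65.5% of 33469 promoters on either strand. Neurod6 had 2 copies of CAGATG, an E-box form bound by Neurod and neurogenin proteins, at 112 and 41 bases before the start; 14% of promoters held it, and of the 6 member promoters Neurod2 and Neurod6 did. Of the 6, Neurod6 alone held ATCAAT, the core that Onecut proteins bind, 8 bases before its start, against 7.1% of all promoters. TTGGC, the core that Nfi proteins bind, lay in the Neurod2 and Neurod6 windows and in 40.3% of promoters, in Neurod6 overlapping the E-box nearest to the start. The octamer ATGCAAAT, bound by Pou2f2, and the full palindromic Nfi site, TTGGC and its reverse complement 5 bases apart, were in none of the 6, against 1.56% and 0.0359% of promoters. Each motif was searched on both strands, and CAGATG is itself a form of CANNTG. A match describes the letters and does not show a bound site. The GC content of the windows was 50.0% for Neurod6, against 72.8% for both Nfia and Zfhx3.

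The late and intermediate factors were present at moderate levels, and the early factors were the lowest. Neurod6 and Zfhx4 led with 19.6 ± 6.25 and 19.5 ± 5.19 FPKM (SD, n = 3), followed by Zfhx3, Nfia, Nfib, Pou2f2 and Onecut2, and Onecut1 was below 1 FPKM in every library. Of the 8 members above 0, 7 passed limma's one-sided test for a level above 1 FPKM, while 63.7% of all tested entries did. The test was Benjamini-Hochberg adjusted over the 17611 entries with a value above 0. Onecut3, listed at 0, was not tested. The median of the 8 members above 0 was 7.16 FPKM, against 6.01 FPKM over the tested entries with a gene symbol and 4.81 FPKM over all entries tested. The members were picked by name with earlier results of these data known, so the count is a description. Because whole cultures were sequenced, fewer cells of a type and less RNA per cell cannot be told apart.

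Onecut genes encode cut-domain homeobox factors of the earliest-born neurons. Onecut2 (ENSRNOG00000018299) measured 3.43, 1.32 and 2.95 FPKM in libraries 1, 2 and 3, and lay above 1 FPKM (95% interval 1.39 to 4.04, limma, Benjamini-Hochberg adjusted p = 0.00811). Library 2 was the lowest of the 3 by a wide margin. Onecut1 (ENSRNOG00000008095) had 0.51, 0.16 and 0.30 FPKM in libraries 1, 2 and 3, so that all 3 values were below 1 FPKM (interval 0.167 to 0.496), and library 2 was again the lowest. Onecut3 (ENSRNOG00000033869) was listed at 0 in each library, and whether such a 0 is a failed estimate is not known. Within libraries, Onecut2 was 6.22-fold Onecut1 (95% interval 4.32 to 8.97), and it was the higher gene in 3 of 3 libraries. Ratios are taken from log2(FPKM + 0.1), which understates those of low genes.

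Zfhx3 and Zfhx4 encode very large proteins with many zinc fingers and homeodomains, and mark intermediate-born and projection neurons in the mouse spinal cord. Zfhx4 (ENSRNOG00000008765) had 22.7, 13.5 and 22.2 FPKM in libraries 1, 2 and 3. Zfhx3 (ENSRNOG00000014452) had 13.4, 5.65 and 11.9 FPKM in the same libraries. Both lay above 1 FPKM (limma, Benjamini-Hochberg adjusted p = 2.29e-06 for Zfhx4 and 0.00133 for Zfhx3). Libraries 1 and 3 were close to each other for both genes, and library 2 was lower. Zfhx4 exceeded Zfhx3 in 3 of 3 libraries, by 1.69-fold, 2.36-fold and 1.87-fold in libraries 1, 2 and 3 (mean 1.95-fold, interval 1.47 to 2.59). The planned limma test did not call this pair (Benjamini-Hochberg adjusted p = 0.101), while the test added later did (0.00985), so it is not counted as different.

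Pou2f2 (ENSRNOG00000020381, written POU2F2 in the table), a POU homeodomain factor of intermediate-born neurons, had 5.09, 4.14 and 5.22 FPKM in libraries 1, 2 and 3 (4.82 ± 0.590, SD, n = 3; limma, Benjamini-Hochberg adjusted p = 2.93e-08 for a level above 1 FPKM). By coefficient of variation, the Nfi factors of late-born neurons varied least of the 8 members above 0. Nfib, at 11.5%, was close to Pou2f2, at 12.2%. Nfia (ENSRNOG00000006966) had 7.17, 8.16 and 7.80 FPKM (7.71 ± 0.501, adjusted p = 7.55e-10 in limma's test), and its coefficient of variation of 6.50% was the smallest among the 8 members above 0. Nfib (ENSRNOG00000009795) had 6.45, 5.93 and 7.42 FPKM (6.60 ± 0.756, adjusted p = 3.71e-09 in limma's test). Nfia was above Nfib in 3 of 3 libraries, by 1.17-fold, but this did not pass (interval 0.967 to 1.41; limma, Benjamini-Hochberg adjusted p = 0.164 in the planned test and 0.101 in the added one). Neurod6 (ENSRNOG00000026055), a basic helix-loop-helix factor of late-born neurons, had 16.1, 26.8 and 15.9 FPKM in libraries 1, 2 and 3 (limma, Benjamini-Hochberg adjusted p = 2.98e-06 for a level above 1 FPKM). Library 2 was the highest for Neurod6, whereas it was the lowest for Onecut1, Onecut2, Zfhx3, Zfhx4, Pou2f2 and Nfib.

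**Figure D1:**
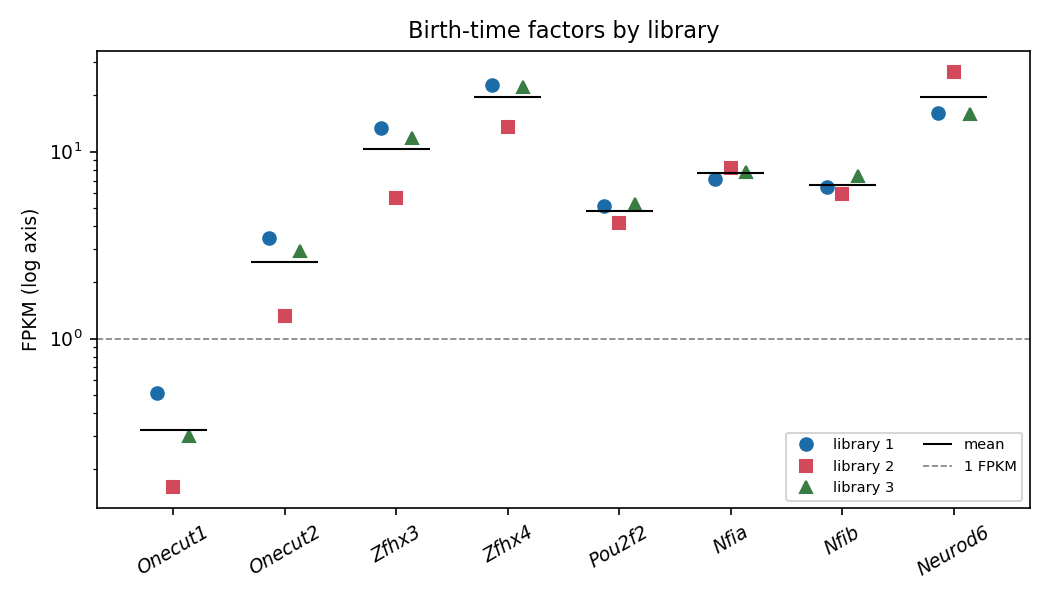
FPKM of the 8 birth-time factors above 0 (log axis), ordered from early to late, with a symbol for each of the 3 libraries, a bar at the mean and a dashed line at 1 FPKM. Library 2 is the lowest symbol for Onecut1, Onecut2, Zfhx3, Zfhx4, Pou2f2 and Nfib and the highest for Neurod6 (26.8 FPKM) and Nfia (8.16 FPKM).

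The order of the levels was then tested within libraries, over the 28 pairs of the 8 members. A pair was called different only where it passed both a planned limma test of its ratio and a second one added after the data were seen, each two-sided with Benjamini-Hochberg adjustment over 17610 entries; 22 pairs passed the planned test, 23 the added one and 21 both. The shares of all entries given here count differences in either direction, whereas the members counted are only those with a higher mean. Against Onecut1, all 7 higher members differed, as did 85.4% of all entries, from 6.22-fold for Onecut2 to 47.9-fold for Neurod6 (interval 22.9 to 100.2). The size of these folds rests on the pseudocount, since Onecut1 lies near it: with 1 in place of 0.1 they were 2.61 for Onecut2 and 15.2 for Neurod6, and with 0.01 they were 7.91 and 63.0, and all 7 members still passed both tests. Against Onecut2, 5 of the 6 higher members differed, as did 81.3% of all entries, with Zfhx4 at 7.68-fold (5.83 to 10.1) and Zfhx3 at 3.93-fold (3.26 to 4.74). The exception was Pou2f2, at 1.97-fold (1.29 to 3.00; limma, Benjamini-Hochberg adjusted p = 0.0977 in the planned test and 0.0123 in the added one).

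Against Pou2f2, all 5 higher members differed, as did 91.9% of all entries, with Nfib at 1.36-fold (1.14 to 1.63), Nfia at 1.59-fold (1.29 to 1.97) and Zfhx3 at 1.99-fold (1.20 to 3.33). Against Nfib, 2 of 4 did, Neurod6 at 2.86-fold (1.90 to 4.32) and Zfhx4 at 2.86-fold (2.20 to 3.71), beside 90.9% of all entries. Against Nfia, 2 of 3 did, Neurod6 at 2.45-fold (1.83 to 3.27) and Zfhx4 at 2.44-fold (1.70 to 3.52), beside 91.8% of all entries. Against Zfhx3, neither Zfhx4 nor Neurod6 differed, while 66.8% of all entries did, and Neurod6 did not differ from Zfhx4, while 80.0% of all entries did. Neurod6 over Zfhx4 averaged 1.00-fold with a wide interval (0.555 to 1.81), made of 0.711-fold in library 1, 1.98-fold in library 2 and 0.714-fold in library 3. Beside shares this high, the counts of members are no result particular to them. Of the 7 pairs of neighbours in the order Neurod6, Zfhx4, Zfhx3, Nfia, Nfib, Pou2f2, Onecut2, Onecut1, 2 differed, Nfib over Pou2f2 and Onecut2 over Onecut1.

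**Figure D2:**
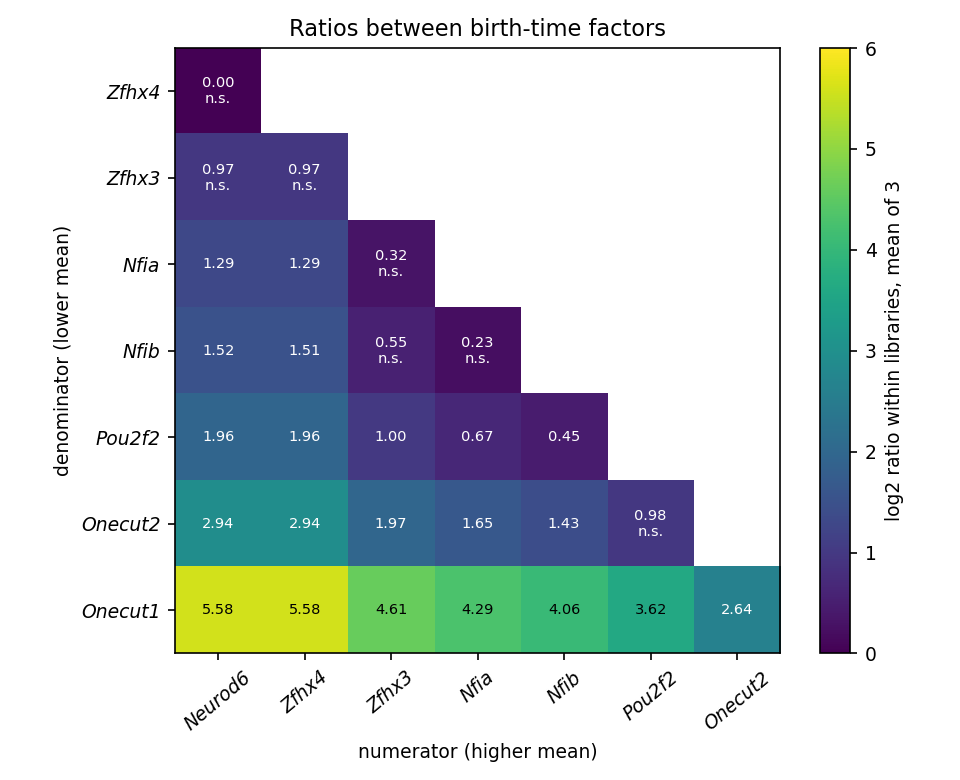
Mean log2 ratio within the 3 libraries for each of the 28 pairs, numerator in columns and denominator in rows, both ordered by mean FPKM; n.s. marks the 7 pairs that did not pass both tests. Ratios grow from 0.00 for Neurod6 over Zfhx4 to 5.58 for Neurod6 over Onecut1.

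Some calls changed when a library was left out. Without library 2, Zfhx4 exceeded Neurod6 (log2 ratio of Neurod6 to Zfhx4 -0.49; limma, Benjamini-Hochberg adjusted p = 4.49e-04 in the planned test and 0.00221 in the added one), and 27 of the 28 pairs differed, Zfhx4 and Zfhx3 among them (1.78-fold). Without library 1 or without library 3, 17 pairs differed in either case: Nfib over Pou2f2, and Zfhx3, Nfia and Nfib over Onecut2, no longer passed the planned test, though all 4 passed the added one. The folds of these pairs were no smaller than 1.34 for Nfib over Pou2f2 and were 3.98 and 3.94 for Zfhx3 over Onecut2, 3.88 and 3.46 for Nfia over Onecut2, and 3.24 and 2.81 for Nfib over Onecut2, without library 1 and without library 3. Zfhx3 over Pou2f2 was not called with a filter at a mean of 0.5 FPKM or with no filter (limma, Benjamini-Hochberg adjusted p = 0.0532 and 0.0554 in the added test). With 2 libraries the tests lean almost wholly on the variance shared over all entries.

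The place of library 2 was set beside all entries. Deviations are log2(FPKM + 0.1) in library 2 minus the mean of libraries 1 and 3, less the median of the 11662 entries with a mean of at least 1 FPKM. Onecut2 deviated by -1.34, Zfhx3 by -1.27, Onecut1 by -1.06 and Zfhx4 by -0.86, and the shares of entries that deviated lower were 0.686%, 0.729%, 1.11% and 1.55% in that order. Onecut1, with a mean of 0.323 FPKM, is not itself among those entries. Its share sets a gene near the pseudocount beside entries with higher levels, so it is not a like comparison. Pou2f2 (-0.44) and Nfib (-0.35) deviated less, and Nfia (-0.01) lay at the middle. Neurod6 deviated by 0.61, above 99.0% of entries. Over all of these entries, 21.5% were lowest and 62.1% were highest in library 2, and the central 90% of deviations spanned -0.52 to 0.28. There is no second group, so these are descriptions of 3 libraries without a test.

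Other lists of genes are set beside these deviations. Of a list of genes for giant proteins, all 21 matched were lowest in library 2, with a median deviation of -1.01; among them Dync1h1, the heavy chain of dynein, had 33.9 FPKM in library 2 against 78.2 and 71.1 in libraries 1 and 3, and Reln, the secreted protein reelin, 22.4 against 51.6 and 53.1. Their part in the low values of the Zfhx and Onecut genes was not tested, and transcript lengths were not used here. Of the 4 commissural markers, 3 were lowest in library 2, beside 21.5% of all entries, and the median deviation of the list was -0.62. They summed to 245, 172 and 252 FPKM in libraries 1, 2 and 3. Robo3, a receptor of commissural axons, had 118, 74.5 and 119 FPKM and Dcc, the netrin receptor, 68.0, 48.1 and 71.6. Cntn2 had 44.2, 33.4 and 46.4 FPKM. Boc was the exception, with 15.0, 15.7 and 15.1 FPKM, and was highest in library 2. The part of the commissural markers in the low values of the Zfhx and Onecut genes was not tested either. Of the 7 radial glia and progenitor markers, 6 were highest in library 2, beside 62.1% of all entries, and their median deviation was 0.08. They summed to 952, 1208 and 981 FPKM, of which Fabp7 gave 492, 686 and 514. Their part in the high value of Neurod6 was not tested.

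**Figure D3:**
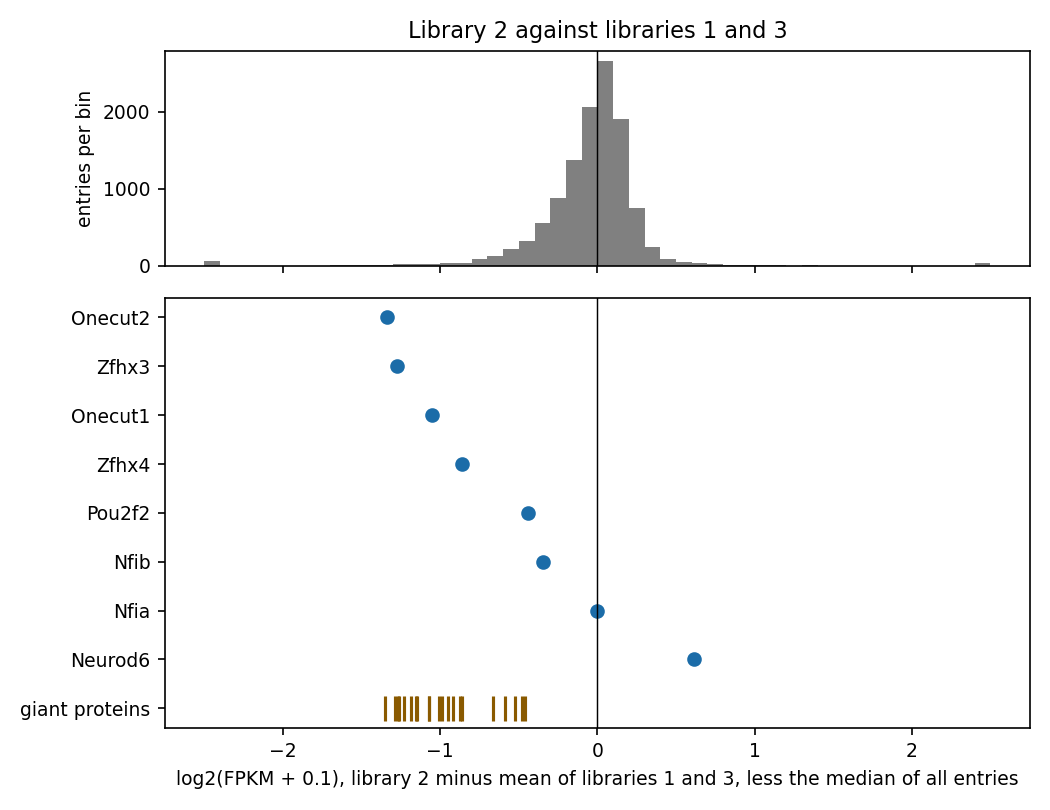
Deviation of library 2 from libraries 1 and 3 on the log2(FPKM + 0.1) scale, less the median of all entries: above, the number of entries in bins of width 0.1 among 11662 entries, with those beyond 2.5 counted in the end bins; below, the 8 members (points) and 21 genes for giant proteins (ticks). Onecut2, Zfhx3, Onecut1 and Zfhx4 lie among the ticks, Nfia at -0.01 and Neurod6 at 0.61.

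Summed by family, Zfhx3 and Zfhx4 had 36.1, 19.1 and 34.1 FPKM in libraries 1, 2 and 3, Neurod6 16.1, 26.8 and 15.9, and Nfia and Nfib 13.6, 14.1 and 15.2. Onecut1 and Onecut2 summed to 3.94, 1.48 and 3.25 FPKM. The Zfhx pair held 48.2%, 29.2% and 46.3% of the members' summed FPKM, and Neurod6 21.5%, 40.8% and 21.5%, so that Neurod6 was the larger share in library 2 and the Zfhx pair in libraries 1 and 3. The Nfi pair kept 18.2%, 21.5% and 20.7%, and the Onecut pair 5.26%, 2.25% and 4.41%. The total over the members was 74.9, 65.7 and 73.6 FPKM. Neurod2 is not in these sums.

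**Figure D4:**
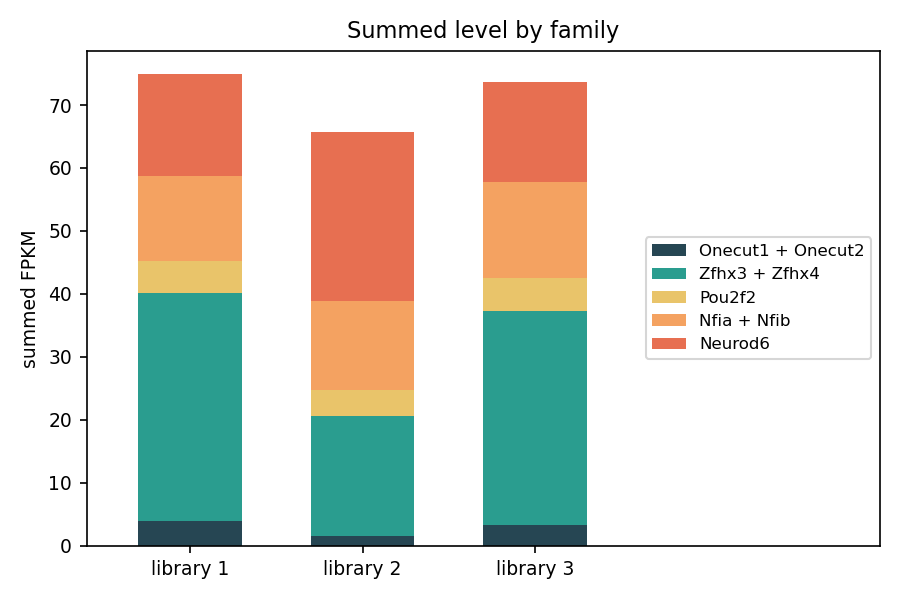
Summed FPKM of the members by family, stacked, in each of the 3 libraries. The Zfhx pair is 36.1, 19.1 and 34.1 FPKM in libraries 1, 2 and 3 and Neurod6 16.1, 26.8 and 15.9 FPKM.

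The closest relatives of the members were measured as well. Of 7 relatives, 6 lay above 1 FPKM, as did 63.7% of all tested entries, with a median over the 7 of 2.70 FPKM. Zfhx2, the third Zfhx gene, led them with 22.9, 14.2 and 22.4 FPKM in libraries 1, 2 and 3. Neurod1, which acts in early neuronal differentiation, had 4.05 ± 0.205 FPKM (SD, n = 3), Neurod4 1.74 ± 0.375, and Pou2f3 was listed at 0 in each library. Among 42 genes of the members and related lists, the one closest in level over the 3 libraries was Zfhx2 for Zfhx4, with a root mean square difference of log2 values of 0.04. Sox9 was closest to Nfia (0.11), Smad3 to Pou2f2 (0.22) and Nfic to Onecut2 (0.53). This measure mostly ranks likeness of level over 3 libraries of 1 group.

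Genes of the programme that surrounds the birth-time factors were counted in the same test, which 63.7% of all tested entries passed. Among proneural genes, which start neuronal differentiation in progenitors, 3 named here lay above 1 FPKM: Neurog2 had 7.52 ± 1.58, Neurog1 3.82 ± 0.676 and Atoh1 3.04 ± 0.332 FPKM, while Neurog3 was listed at 0. Of 5 early progenitor timing genes, 4 did, with Hmga1 at 41.9 ± 3.53, Hmga2 at 7.07 ± 0.0493, Lin28b at 3.09 ± 0.990 and Nr6a1 at 1.72 ± 0.176 FPKM, while Lin28a, a regulator of let-7 microRNAs, had 0.137 ± 0.0896. Lin28b had 2.09, 3.10 and 4.07 FPKM in libraries 1, 2 and 3, so that library 1 was lowest. Of 5 late ones, 4 did, with Npas3 at 13.0 ± 0.135, Sox9 at 7.28 ± 0.345, Hopx at 3.85 ± 0.488 and Sox8 at 1.37 ± 0.202 FPKM; Zbtb20, at 1.85, 0.67 and 1.73 FPKM, was not called above 1 FPKM (adjusted p = 0.210 by limma with Benjamini-Hochberg adjustment). Early and late timing genes were thus present in the same cultures.

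TGF-beta signalling is known from the mouse neural tube to set the pace of the temporal code. Of its 8 genes, 6 lay above 1 FPKM, as did 63.7% of all tested entries. Smad4 led at 30.3 ± 0.942 FPKM, with Smad2 at 28.0 ± 1.46 FPKM. The type II receptor Tgfbr2 had 0.280 ± 0.0520 and the ligand Tgfb3 1.07 ± 0.0700 FPKM, and neither passed. Of 4 cofactors, 3 lay above 1 FPKM: Ski, a corepressor that binds Nfi proteins, had 22.9 ± 1.60, Ep300 12.5 ± 3.10 and Crebbp 9.07 ± 2.76 FPKM, and Foxa2 was listed at 0. The median over the 34 genes of these lists was 3.83 FPKM, those listed at 0 included, against 6.01 over the tested entries with a symbol.

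**Figure D5:**
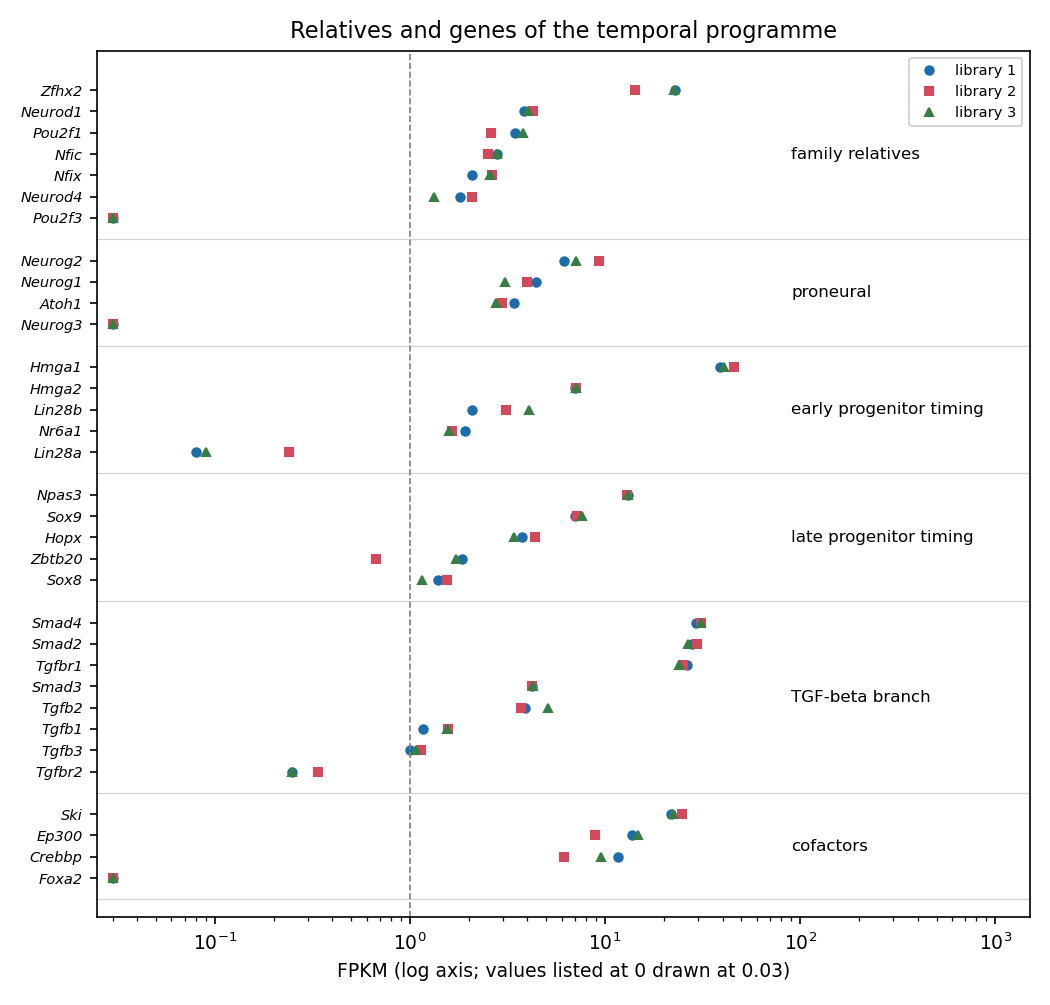
FPKM (log axis) in the 3 libraries of relatives and genes of the temporal programme, grouped by list, with a dashed line at 1 FPKM; values listed at 0 are drawn at 0.03. Zfhx2, Zbtb20, Ep300 and Crebbp are lowest in library 2, as are Pou2f1, Nfic, Npas3 and Tgfb2. Those highest there include Neurog2, Nfix, Neurod1, Hmga1, Smad2 and Ski. Of entries with a mean of at least 1 FPKM, 21.5% were lowest and 62.1% highest in library 2.

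Markers describe the cells in which these values were measured. The counts stand beside 63.7% of all tested entries that lay above 1 FPKM. All 7 neuronal and all 4 commissural markers lay above 1 FPKM, with Robo3 at 104 ± 25.4 FPKM. So did all 7 radial glia and progenitor markers, from Nes at 3.15 ± 0.197 FPKM to Fabp7 at 564 ± 106 FPKM. Of the other lists, 2 of 3 microglial, 1 of 4 oligodendrocyte and 1 of 5 sensory and neural crest markers did. Of 6 astrocyte markers 3 did, Slc1a2 at 26.6 ± 1.64, Gja1 at 6.22 ± 0.721 and Aldh1l1 at 3.20 ± 0.467 FPKM, while S100b, Aqp4 and Gfap averaged 0.270, 0.050 and 0.030 FPKM. Motor neuron markers were at most 0.10 FPKM, with Mnx1 and Isl2 listed at 0. Neurod6 also marks excitatory neurons of the cortex; among other markers of those, Emx1 was listed at 0 and Tbr1 and Slc17a7 had at most 0.13 FPKM. Nfia and Sox9 are found in progenitors and glia as well as in neurons, and the part of those cells in the Nfi values was not tested.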

How the data were processed

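RNA of 3 libraries of 1 group was analysed. Per the labels' protocols, the libraries were stranded, made from polyadenylated RNA and read from both ends over 50 bp. FastQC, Trimmomatic 0.22 and STAR were used with build rn6, per the submitters' processing notes. The authors deposited FPKM values; the tool behind them, like its annotation, is not given in the sources used here.

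FPKM was used as deposited, as log2(FPKM + 0.1). Entries with a value above 0 in any library (17611) were tested for a level above 1 FPKM, one-sided, by limma 3.58.1 with a trended robust prior (R 4.3.3, statmod 1.5.0). In the planned ratio test, the log2 ratio of every entry to the lower member of a pair was tested with limma. All those ratios share the spread of 1 gene, and for 6 of the 7 members used as denominator the fit's median prior degrees of freedom were infinite. A second test, added after the data were seen, squeezed each ratio's own variance to the priors of limma's level fit. Intervals are from the second. Pairs with Neurod2 or Onecut3 could not be tested. All p-values are Benjamini-Hochberg adjusted over all entries, with a threshold of 0.05. An exact sign-flip test on 3 libraries cannot go below p = 0.25. Tests were also run on simulated data in which noise was drawn independently for each entry. Shifts shared by many genes of a library were not simulated, so that run cannot speak for them.

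Members and lists were chosen with earlier results of these data known; the list of giant proteins was added later. All members are named, as are the genes of lists of 6 or fewer and the 2 highest and 2 lowest of longer ones, except that results of some list genes are not reported here. The gene closest in level is given for the highest member of each family but Neurod. Single marker and giant-protein genes given by value were chosen after their values were seen. Pearson's r of log2 values between libraries was 0.988 to 0.994 across 8023 described genes. Promoters are RefSeq's, assembly GRCr8, and were not compared with rn6. Figures were drawn with matplotlib 3.10.9, pandas 2.3.3 and Python 3.11.15.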

Additional observations from a re-analysis of the deposited data

How the results depend on the processing

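The count of members above 1 FPKM was 7 under other pseudocounts, filters, priors and scalings, at a level of 0.5 FPKM and without any 1 library. At a level of 5 FPKM it was 4, and the related lists had 13 genes above it, against 27 above 1 FPKM; Pou2f2 (4.79 FPKM, from the mean of log2 values) and Onecut2 (2.38 FPKM) lie below that level, and Zfhx3 did not pass it (limma, Benjamini-Hochberg adjusted p = 0.0570). All entries above 1 FPKM numbered 11131 to 11219 without any 1 library and with other pseudocounts. Pairs that differed in the planned test numbered 17 to 27 without 1 library, 17 in a test against a 1.5-fold margin, and 15 with a filter at a mean of 0.5 FPKM, which leaves out Onecut1 and so 7 pairs. In both tests together, that filter gave 13 pairs, against 21. The log2 ratio of Neurod6 to Zfhx4 ranged from -0.49 to 0.25 without 1 library, and its sign turned without library 2; the cause was not tested. Without 1 library, mean summed levels ranged over 2.365 to 3.595 FPKM for Onecut, 26.6 to 35.1 for Zfhx, 13.9 to 14.7 for Nfi and 16.0 to 21.5 for Neurod6. No pairing of libraries between groups was possible because all libraries form 1 group, while ratios between members were taken within each library. FPKM gives no read counts, so no counting error could be given.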
